A study of Mus musculus with 6 samples.

Results

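The genes that build, lengthen and desaturate fatty acids were followed in cultured mouse cerebellar granule neurons (CGNs) that received the EZH2 inhibitor GSK-126 or its solvent, DMSO. The set was chosen by symbol with earlier results of these data known, so its counts beside those of all genes are a description. It has 10 members, and all 10 (Acly, Acss2, Acaca, Fasn, Scd1, Scd2, Elovl5, Elovl6, Fads1 and Fads2) were found among the 55341 genes of the count tables. Granule neuron progenitors were taken from pooled litters of CD1-IGS mice of both sexes at P6 to P8, purified on Percoll and given AraC, an inhibitor of dividing cells, so each replicate is a culture and not a single animal. All 6 libraries share this preparation. The library labels give DIV3 (day 3 in vitro). It was read as the day when DMSO or GSK-126 was added, once. By the study's methods poly-A RNA was then collected at DIV5, a day that the labels do not give. There are 3 libraries per treatment with replicate numbers 1 to 3. The dose used at DIV3 is not given in the sources used here. The comparison asks which genes change when EZH2, the enzyme that writes the repressive histone mark H3K27me3, is inhibited in neurons that have been in culture for some days, later than the onset of their differentiation.

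Fatty acids are built in the cytosol from acetyl-CoA. It comes from citrate or acetate and is carboxylated to malonyl-CoA, whose carbons are joined into palmitate, which is then lengthened and given double bonds in the endoplasmic reticulum. Transcription of these genes is driven by the sterol regulatory element-binding proteins (SREBPs), with the liver X receptors (LXRs) acting on Srebf1 and on several of the enzymes directly. In the brain the products go mainly into membrane phospholipids, and growing neurites and glia are both large users.

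The 6 libraries hold 7407189 to 13092763 reads on genes, and the members are covered by 290 to 29128 reads in a library. In bulk RNA, fewer cells of a type and less RNA per cell cannot be told apart. The markers of other cells were not all near 0. Summed over 10 granule neuron markers the libraries hold 2837 to 5432 CPM (read counts scaled to library size by TMM factors), over 9 astroglia markers 2676 to 8614 CPM, and over 6 fibroblast and mural cell markers 5479 to 7977 CPM. Ezh2, whose product the drug inhibits without lowering its mRNA by design, had a level of 36.5 ± 6.97 CPM in the DMSO libraries against 33.6 ± 7.82 CPM in the treated ones (SD, n = 3), so it is no check of the treatment.

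The promoters of these genes differ in the short motifs they hold. RefSeq promoter windows (GRCm38.p6, the 250 bases before the RefSeq start) were on hand for 7 of the 10 members, namely Acly, Acss2, Acaca, Fasn, Elovl5, Elovl6 and Fads2. They were searched on both strands for CCAAT (bound by NF-Y, a partner of SREBP), CACGTG (an E-box), GGGCGG (the GC box of Sp1) and TCACNCCAC (a core of the sterol regulatory element). The CCAAT box was in 3 of the 7, the E-box in 1, the GC box in 3 and the sterol core in 0. The Acaca window, which held no match, is at chr11:84195188-84195437. It lies inside the annotated gene (chr11:84129672-84401651) and not before the GENCODE start, so it says nothing of the sequence there. The Fads2 window (chr19:10101504-10101753, minus strand) also lies mostly inside its gene (chr19:10062765-10101746). Those of Acss2 and Elovl6 run partly into theirs, so the motif counts include sequence past the GENCODE start. Of all 32851 promoter windows of the same length, 33.9% hold a CCAAT box, 6.02% the E-box, 32.7% the GC box and 1.05% the sterol core. A match is a string of letters and not a measured binding site, and with no match only these letters are missing from this window. The windows of Fasn, Acly and Elovl5 are shown on the coding strand of each gene, because they belong to 2 members called higher with GSK-126 and 1 not called, and because the RefSeq and GENCODE starts of these genes coincide within 1 base. Capitals mark the CCAAT and GC boxes or the E-box, on either strand.
Fasn, chr11:120824548-120824797, minus strand: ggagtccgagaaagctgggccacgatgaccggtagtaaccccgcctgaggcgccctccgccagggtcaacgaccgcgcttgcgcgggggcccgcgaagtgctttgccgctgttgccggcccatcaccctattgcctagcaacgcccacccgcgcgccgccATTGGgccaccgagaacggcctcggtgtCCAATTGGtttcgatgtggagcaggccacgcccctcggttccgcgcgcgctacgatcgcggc
Acly, chr11:100528001-100528250, minus strand: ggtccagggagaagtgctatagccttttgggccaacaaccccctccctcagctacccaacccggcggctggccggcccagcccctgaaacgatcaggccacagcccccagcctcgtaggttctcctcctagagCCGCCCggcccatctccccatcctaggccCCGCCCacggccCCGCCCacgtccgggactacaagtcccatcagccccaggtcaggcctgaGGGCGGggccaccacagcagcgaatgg
Elovl5, chr9:77917115-77917364, plus strand: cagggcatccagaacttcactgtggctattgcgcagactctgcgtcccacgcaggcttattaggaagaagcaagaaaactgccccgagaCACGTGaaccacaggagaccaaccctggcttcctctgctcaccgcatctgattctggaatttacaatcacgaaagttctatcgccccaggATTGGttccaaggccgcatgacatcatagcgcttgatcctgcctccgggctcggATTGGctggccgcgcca
The Fasn window holds 3 CCAAT boxes, beginning at positions -90, -62 and -59 from the start, and the last 2 of them overlap. Acly holds 4 GC boxes at -117, -88, -76 and -27, and Elovl5 holds an E-box at -161 and CCAAT boxes at -71 and -17.

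With GSK-126, 7 of the 10 genes were higher and none was lower. Fasn, Scd1 and Fads2 stood more than 1.5-fold above DMSO, Fads1 and Scd2 near 1.4-fold, and Acly and Acaca near 1.26-fold and 1.25-fold. Acss2, Elovl5 and Elovl6 were not called. These calls come from edgeR's quasi-likelihood test with the replicate number as a block and Benjamini-Hochberg adjustment over 16729 genes at 0.05, a fit in which 3.35% of all tested genes were called higher and 5.09% lower. Among the 5805 tested genes at least as abundant as the lowest member, 6.24% were higher and 11.0% lower. The fit without the block, taken as the main comparison, called 0 of the members and 0 of all genes (0% in each direction). At an unadjusted p under 0.05 that fit had 7 members higher and 0 lower, beside 1.77% of all genes (296) higher and 2.21% (369) lower. DESeq2 without the block called 2 members, Fasn and Scd1, beside 0.120% of all genes, and DESeq2 with the block called 7 members, beside 2.21%.

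The direction was shared more widely than the calls. The median log2 fold change of the 10 members was 0.40, against -0.007 over all genes tested. It was 0.38, 0.48 and 0.45 in pairs 1, 2 and 3 taken alone (SD 0.05, n = 3). Of the 30 member and pair combinations, 27 were higher with GSK-126. These are the same 3 pairs read for each member and not 30 separate observations, and the share over all genes was not counted. In the fit without the block the change was above 0 for all 10 members, beside 48.8% of all genes. The 3 GSK-126 libraries lay wholly above the 3 DMSO libraries for 7 members, which 4.72% of all genes did, and 8 members were higher in every pair, which 19.5% of all genes were. Summed over the members, the level was 3230, 3079 and 2949 CPM with DMSO and 4581, 4263 and 4105 CPM with GSK-126, or 3086 ± 141 against 4316 ± 242 (SD, n = 3).

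**Figure D1:**
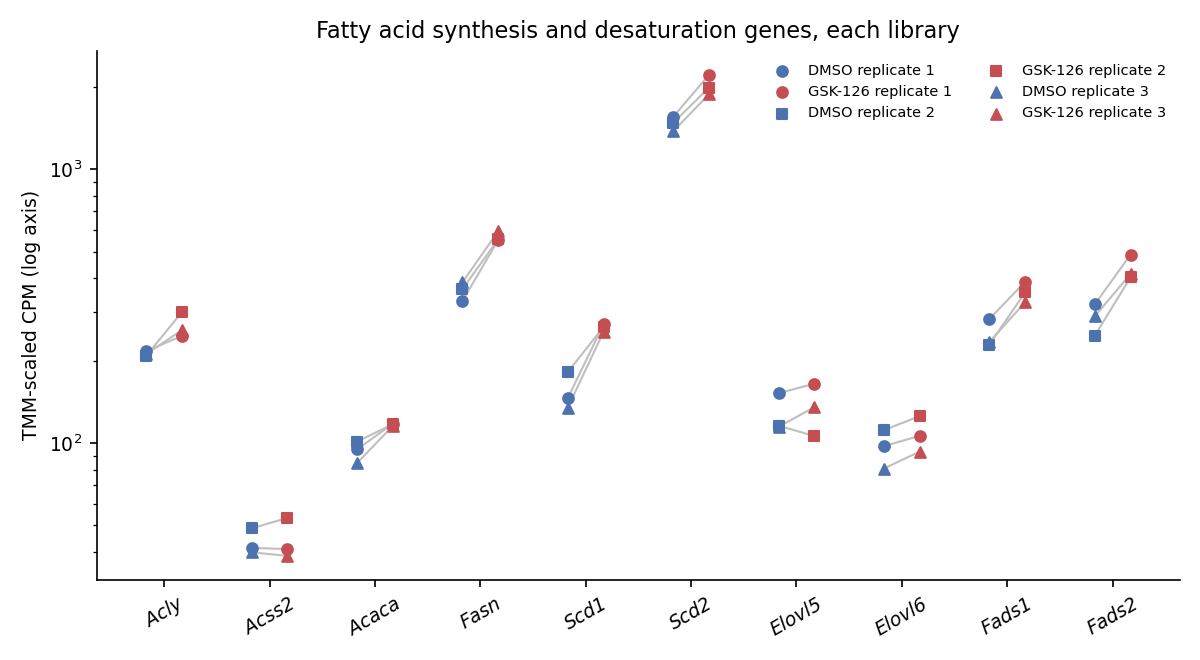
Level of each member gene in each library in TMM-scaled CPM on a log axis, DMSO in blue and GSK-126 in red, with the marker shape giving the replicate number and a grey line joining libraries of one number. The red points lie wholly above the blue ones for 7 genes and mix with them for Acss2, Elovl5 and Elovl6.

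The first group of members makes and carboxylates acetyl-CoA. Acly (ATP-citrate lyase, ENSMUSG00000020917.17, GRCm38 chr11:100476353-100528000) splits citrate into cytosolic acetyl-CoA. It was at 216, 208 and 211 CPM with DMSO and 246, 301 and 258 CPM with GSK-126. The DMSO libraries were within a few CPM of each other, the GSK-126 libraries were all above them, and replicate 2 was the highest. The log2 fold change was 0.34 (SE 0.08, edgeR with the block, Benjamini-Hochberg adjusted p = 0.00827), a fold of 1.26. Its 3 pairs moved by 0.19, 0.53 and 0.29, and without pair 2 the change was 0.24 and no longer called (edgeR, adjusted p = 0.0717).

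Acss2 (ENSMUSG00000027605.18, chr2:155517948-155585724) makes acetyl-CoA from acetate, the other entry to the pathway. It was at 41.4, 48.8 and 39.9 CPM with DMSO and 41.0, 53.3 and 38.7 CPM with GSK-126, so that the treatments overlapped and replicate 2 was the highest of both. The fitted change was 0.03 (SE 0.10, 95% interval -0.19 to 0.25, edgeR with the block, adjusted p = 0.917), an interval that reaches to a fold of 1.19 at most. The exons of Acss2 overlap those of Ggt7, Acss2os and Gss on the opposite strand over 197, 335 and 395 bases, and since the strand setting of the counting is not given in the sources used here, reads there cannot be assigned to one gene with certainty. Whether the change of Acly differed from that of Acss2 was not tested.

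Acaca (acetyl-CoA carboxylase 1, ENSMUSG00000020532.18, chr11:84129672-84401651) makes malonyl-CoA, the committed step. It was at 94.7, 101 and 84.5 CPM with DMSO and 118, 117 and 115 CPM with GSK-126. The GSK-126 libraries were nearly equal and all above the DMSO libraries, and the log2 fold change was 0.32 (SE 0.08, edgeR with the block, adjusted p = 0.0152). The call was lost in the block fits without pair 1 (0.35) and without pair 3 (0.26), with edgeR adjusted p = 0.0588 and 0.144. Of the 100-base stretches of the Acaca exons, 23.6% also occur in Gm5182, a processed pseudogene on chromosome 12 that holds 2 to 15 reads, so some Acaca reads may have had more than one place to align.

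Fasn (fatty acid synthase, ENSMUSG00000025153.9, chr11:120805846-120824547) joins malonyl-CoA units into palmitate on one large protein. It was at 330, 365 and 386 CPM with DMSO and 551, 554 and 593 CPM with GSK-126. Every GSK-126 library was far above every DMSO library, and the lowest of the former exceeded the highest of the latter by more than the whole range of either treatment. The log2 fold change was 0.66 (SE 0.07, edgeR with the block, adjusted p = 3.59e-06), or 1.57-fold with a 95% interval of 1.42 to 1.74. The pairs moved by 0.74, 0.60 and 0.62, and the call held in the block fits without pair 1, 2 or 3. No stretch of 100 bases of its exons was shared with another gene. Its promoter window is the one with 3 CCAAT boxes shown above.

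The desaturases come next. Scd1 and Scd2 put the first double bond into stearate and palmitate to make oleate and palmitoleate, and Scd2 is the form that prevails in brain. Both lie on chromosome 19 with Scd3 and Scd4 near them. Scd1 (ENSMUSG00000037071.3, chr19:44394455-44407879) was at 146, 181 and 135 CPM with DMSO and 271, 266 and 255 CPM with GSK-126. The treatments did not overlap, and the DMSO libraries were the more scattered of the 2 groups. The log2 fold change of 0.79 (SE 0.08, edgeR with the block, adjusted p = 3.01e-06) was the highest of the 10 members, a fold of 1.73 with a 95% interval of 1.54 to 1.94, and it ran from 0.72 to 0.91 with a pair left out.

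Scd2 (ENSMUSG00000025203.6, chr19:44293674-44306864) was by far the most read member, at 1549, 1473 and 1374 CPM with DMSO and 2208, 1983 and 1875 CPM with GSK-126. Replicate 1 was the highest and replicate 3 the lowest under both treatments. The log2 fold change was 0.46 (SE 0.07, edgeR with the block, adjusted p = 1.0e-04), with pairs at 0.51, 0.43 and 0.45. Scd2 alone took 45.7% to 48.2% of the reads of the 10 members in a library. Scd1 and Scd2 share 0.982% and 0.879% of their 100-base stretches with each other. Scd3, at 2 to 19 reads a library, did not pass the filter on low counts, and Scd4 had 1.46 ± 0.53 CPM in DMSO libraries against 1.52 ± 0.49 CPM in treated ones (SD, n = 3, log2 fold change 0.06, edgeR with the block, adjusted p = 0.958).

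Fads1 and Fads2, the delta-5 and delta-6 desaturases that make arachidonic and docosahexaenoic acid from their dietary precursors, lie head to head on chromosome 19. Fads1 (ENSMUSG00000010663.5, chr19:10182888-10196877) was at 283, 229 and 234 CPM with DMSO and 388, 355 and 326 CPM with GSK-126. Fads2 (ENSMUSG00000024665.8, chr19:10062765-10101746) was at 320, 246 and 290 CPM with DMSO and 487, 402 and 414 CPM with GSK-126. For both genes the treatments did not overlap and replicate 1 was the highest of each. The log2 fold change of Fads1 was 0.52 (SE 0.07, edgeR with the block, adjusted p = 7.28e-05) and that of Fads2 was 0.61 (SE 0.07, edgeR with the block, adjusted p = 1.2e-05), and both calls held without pair 1, 2 or 3. The 6 other tested genes within 50000 bases of the pair (Rab3il1, Fads3, Fen1, Tmem258, Myrf and Dagla) gave 0 calls with the block. That is near the shares over all genes, 3.35% higher and 5.09% lower. Fads3, the other desaturase-like gene of this cluster, had 49.5 ± 3.42 CPM in DMSO libraries against 49.98 ± 7.75 CPM in treated ones (SD, n = 3), a log2 fold change of 0.01 (SE 0.10).

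Neither of the elongases among the members was called. Elovl6 (ENSMUSG00000041220.10, chr3:129532355-129638495) takes palmitate to stearate. It was at 97.4, 111 and 80.7 CPM with DMSO and 106, 125 and 93.1 CPM with GSK-126, overlapping between the treatments but higher in all 3 pairs, by 0.13, 0.17 and 0.21. The fitted change was 0.17 (SE 0.08, 95% interval 0.00 to 0.33, edgeR with the block, adjusted p = 0.226). Elovl5 (ENSMUSG00000032349.13, chr9:77917364-77984519) lengthens polyunsaturated fatty acids between the delta-6 and delta-5 steps. It was at 152, 116 and 115 CPM with DMSO and 165, 106 and 135 CPM with GSK-126, and its 3 pairs went by 0.11, -0.13 and 0.24. The spread over replicates was larger than the difference between treatments, and the fitted change was 0.08 (SE 0.08, 95% interval -0.10 to 0.25, edgeR with the block, adjusted p = 0.65).

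**Figure D2:**
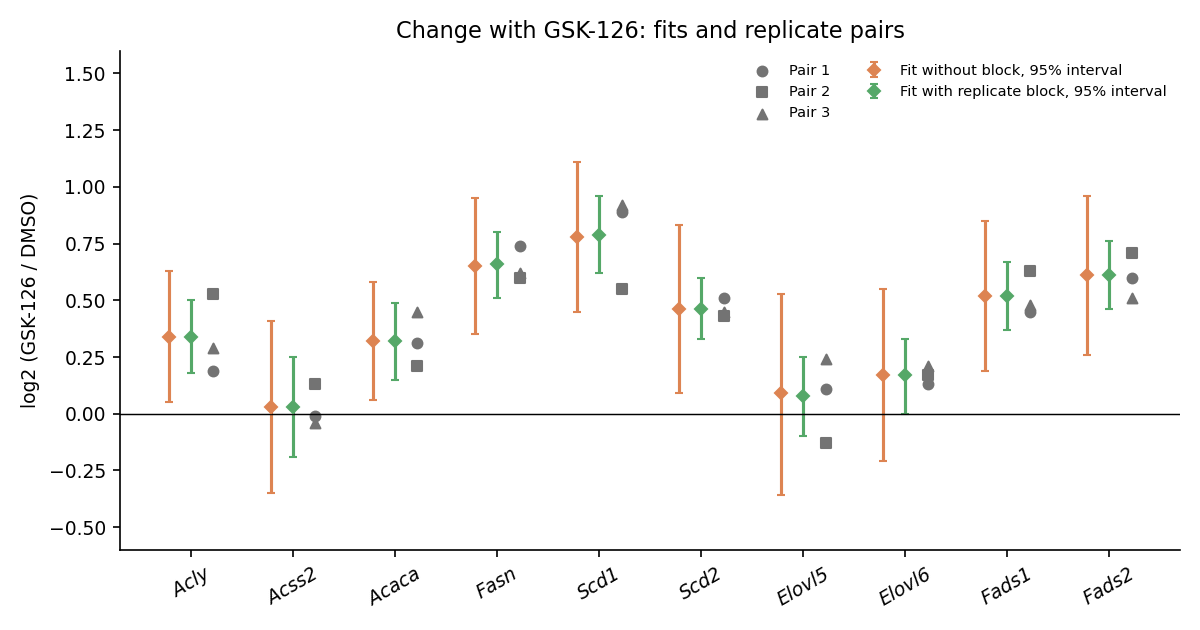
Log2 ratio of GSK-126 to DMSO for each member gene, from edgeR without the replicate block (orange) and with it (green), each with its 95% interval, and from each replicate pair (grey). The estimates of both fits lie within 0.01 of each other, from 0.03 for Acss2 to 0.79 for Scd1, while the intervals are narrower with the block.

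Levels can be set side by side between genes only per length, as RPKM, which divides CPM by the length in kilobases of the union of annotated exons. In the DMSO libraries Scd2 was highest at 268 ± 16.0 RPKM (SD, n = 3), followed by Fads2 at 86.7 ± 11.3 and Fads1 at 51.7 ± 6.28, and the lowest of each was above the highest of the next. Acly (40.1 ± 0.78), Elovl5 (36.2 ± 6.06), Fasn (32.9 ± 2.60) and Scd1 (31.5 ± 4.99) came next. Elovl5 overlapped with each of the other 3 and Fasn with Scd1, whereas Acly lay above both Fasn and Scd1. Elovl6 was at 15.0 ± 2.39 RPKM, and Acaca (5.47 ± 0.49) and Acss2 (4.27 ± 0.47) were lowest and did not overlap. Their annotated exon unions are long, with 17074 bases for Acaca and 10163 for Acss2, which lowers a value per length where an annotated exon is not used.

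Related enzymes were compared, in 3 pairs, as ratios of reads within a library. Scd1 gave 9.41, 12.3 and 9.80 reads per 100 reads of Scd2 with DMSO and 12.3, 13.4 and 13.6 with GSK-126, a log2 difference of 0.33 (SD over pairs 0.18, n = 3). It was higher in all 3 pairs, by 0.39, 0.12 and 0.47. Fads1 gave 88.4, 92.8 and 80.6 reads per 100 of Fads2 with DMSO and 79.7, 88.2 and 78.8 with GSK-126, a difference of -0.09 (SD over pairs 0.06) that was negative in all 3 pairs. Elovl6 gave 64.0, 96.3 and 70.5 reads per 100 of Elovl5 with DMSO and 64.6, 118 and 68.9 with GSK-126, with replicate 2 far above the others under both treatments. None of the 3 ratios differed in a two-sided exact permutation test (p = 0.2, 0.2 and 0.8, the first 2 at 0.3 after adjustment over the 3 ratios), and 3 libraries against 3 cannot give a p below 0.1, nor 3 pairs one below 0.25.

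**Figure D3:**
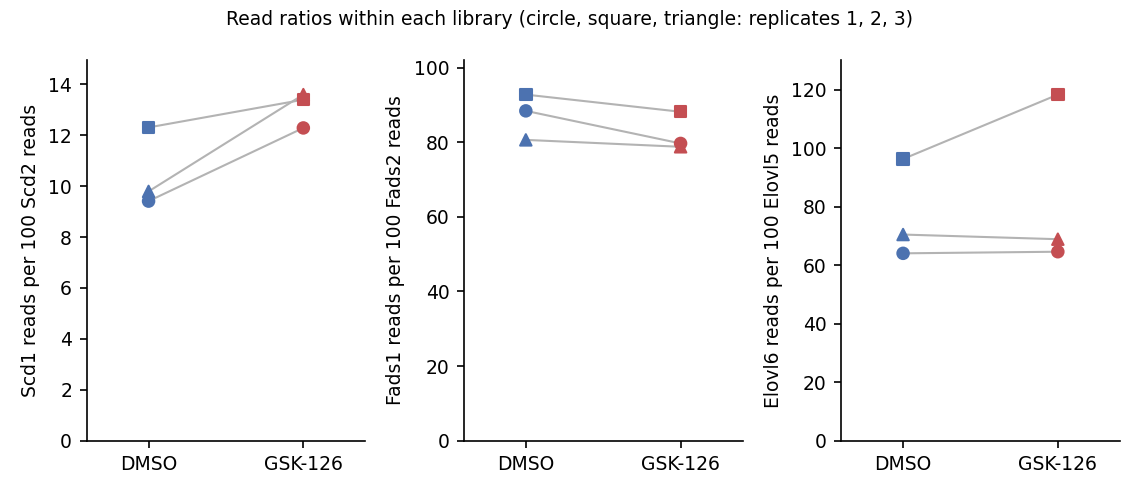
Reads of Scd1 per 100 reads of Scd2, of Fads1 per 100 of Fads2 and of Elovl6 per 100 of Elovl5 in each library, with axes from 0 and grey lines joining libraries of one replicate number. The Scd1 line is upward in all 3 pairs, the Fads1 line slightly downward in all 3, and the Elovl6 ratio of replicate 2 (96.3 and 118) stands above the other 4 libraries.

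Members differed in which libraries were high apart from the treatment. Elovl5 was highest in replicate 1 under both treatments, as were the called members Scd2, Fads1 and Fads2. So were the summed oligodendrocyte and microglia markers and the summed astroglia markers. The last were 8320, 2825 and 4679 CPM in DMSO replicates 1, 2 and 3 and 8614, 2676 and 4616 CPM in the GSK-126 replicates of the same numbers. The astroglia sum itself moved by only 0.05, -0.08 and -0.02 on the log2 scale within the pairs, and 1 of its 9 markers, S100b, was called higher. The marker calls are those with the block, where 3.35% of all genes were called higher and 5.09% lower. Acss2 and Elovl6 were instead highest in replicate 2, where the granule neuron sum was also highest (5432 CPM in the DMSO library, 4315 in the GSK-126 library). Fasn was highest in replicate 3 under both treatments, as were the fibroblast and mural sum (7463 and 7977 CPM) and the endothelial sum. For Acly, Acaca and Scd1 the highest replicate differed between the treatments. The granule neuron sum was lower with GSK-126 in the 3 pairs, by 0.29, 0.33 and 0.36 on the log2 scale, with 5 of its 10 markers called lower and 2 higher. Lower were Slc17a7 (-1.95), Gabra6 (-1.19), Rbfox3 (-0.59), Neurod1 (-0.47) and Zic1 (-0.31), and higher were Tubb3 (0.40) and Barhl1 (0.33). The study lists Gabra6 among late genes of maturation, and the sum does not separate expression per cell from cell number. The fibroblast and mural sum was higher by 0.29, 0.07 and 0.10, with 2 of 6 markers called higher (Acta2 and Pdgfrb). The part of cell composition in the changes of the members was not tested.

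Calls with the block were also made in other marker lists, beside 3.35% of all genes higher and 5.09% lower. Of 10 oligodendrocyte lineage markers 1 was called higher (Mbp) and none lower, of 6 microglia markers 1 was higher (C1qa), of 3 tested endothelial and 3 tested progenitor markers none was called, and of 6 interneuron and Purkinje cell markers 3 were lower (Slc32a1, Gad1 and Gad2). In DMSO and GSK-126 libraries the oligodendrocyte sum ran from 517 to 900 and from 604 to 907 CPM, and the microglia sum from 149 to 320 and from 205 to 372 CPM. The progenitor sum ran from 289 to 385 and from 279 to 428 CPM, the endothelial sum from 51.7 to 73.4 and from 38.6 to 68.9 CPM, and the interneuron and Purkinje sum from 195 to 227 and from 150 to 183 CPM. Within pairs 1, 2 and 3 the interneuron and Purkinje sum moved by -0.25, -0.29 and -0.60 on the log2 scale, the microglia sum by 0.22, 0.46 and 0.30, the oligodendrocyte sum by 0.01, 0.22 and 0.16, the progenitor sum by 0.29, -0.05 and 0.12 and the endothelial sum by 0.29, -0.42 and -0.08. The treatments did not overlap in the interneuron and Purkinje sum and overlapped in the other 4. Of the defining markers, Atoh1 (progenitors, 0 to 0.754 CPM) and Cldn5 (endothelium, 0 to 0.909 CPM) were at 0 in some libraries.

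**Figure D4:**
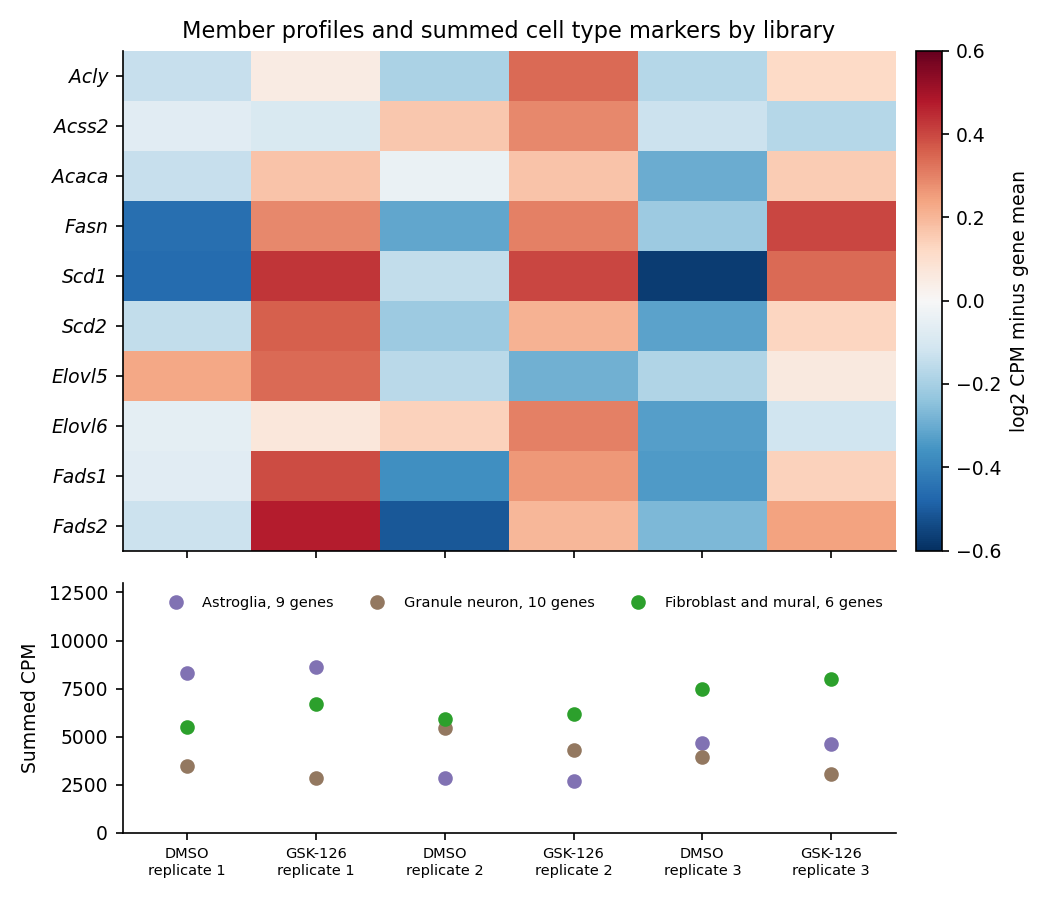
Top, log2 CPM of each member minus its mean over the 6 libraries, libraries ordered by replicate number with DMSO beside GSK-126. Bottom, summed CPM of the astroglia, granule neuron and fibroblast and mural markers in the same libraries; the astroglia sum is highest in both libraries of replicate 1 (8320 and 8614) and changes little within a pair.

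Further enzymes lengthen or desaturate fatty acids beside the members. Of 13 tested further genes of elongation and desaturation, 2 were called higher and 0 lower with the block, with a median log2 fold change of 0.18, beside the 3.35% and 5.09% of all genes. Both belong to the common elongation cycle. Hsd17b12, the ketoacyl reductase, was at 132, 126 and 104 CPM with DMSO and 163, 145 and 138 CPM with GSK-126 (log2 fold change 0.31, SE 0.08, edgeR with the block, adjusted p = 0.0158). Hacd1, a dehydratase, went from 18.8 ± 3.23 to 26.4 ± 5.90 CPM (SD, n = 3, log2 fold change 0.48, edgeR with the block, adjusted p = 0.0302). The Hacd1 call was lost in each block fit with a pair left out (edgeR, adjusted p = 0.167, 0.0595 and 0.0801 without pair 1, 2 or 3) and with DESeq2 and the block (0.102). That of Hsd17b12 was lost without pair 1 or pair 3 (edgeR, adjusted p = 0.0706 and 0.138). Tecr, the last reductase of the cycle, was at 0.07 and adjusted p = 0.61 in the same edgeR fit. The elongases Elovl1, Elovl2, Elovl4 and Elovl7 were at 0.24, 0.33, -0.14 and 0.43, and none was called.

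Of 9 tested genes of precursor supply and control, 3 were called higher and 0 lower with the block (median 0.22). Over all genes the shares were 3.35% higher and 5.09% lower. Aacs, which makes acetoacetyl-CoA from ketone bodies for lipid synthesis, was at 88.0, 81.9 and 87.6 CPM with DMSO and 116, 135 and 108 CPM with GSK-126 (log2 fold change 0.48, SE 0.09, edgeR with the block, adjusted p = 0.0016). Mid1ip1, which promotes polymerisation of acetyl-CoA carboxylase, changed by 0.50 and Slc25a1, the carrier that exports citrate from mitochondria, by 0.45 (edgeR with the block, adjusted p = 0.0102 and 0.0217). Both calls were lost without pair 2, where Mid1ip1 was at 0.32 and Slc25a1 at 0.26 (edgeR with the block, adjusted p = 0.157 and 0.217), and in fits without the block Slc25a1 ran from 0.13 when DMSO replicate 2 was left out to 0.64 when DMSO replicate 1 was. Values of other genes in this list were -0.03 for Me1, a source of NADPH, -0.01 for Acacb, the mitochondrial carboxylase, and 0.28 for Thrsp, a partner of Mid1ip1, none of them called. Mitochondrial fatty acid synthesis, a separate pathway that makes octanoate for lipoic acid, had 0 calls among 5 tested genes, with 0.37 for Mecr, 0.11 for Cbr4, 0.09 for Ndufab1, 0.04 for Mcat and -0.05 for Oxsm.

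Among 10 tested genes of SREBP, LXR and ChREBP control, 3 were called higher and 0 lower with the block, although the median was -0.01. Over all genes the shares were 3.35% higher and 5.09% lower. Srebf1, whose main product drives the genes of fatty acid synthesis, was at 119, 88.6 and 95.3 CPM with DMSO and 165, 103 and 115 CPM with GSK-126. It was higher in each pair while the treatments overlapped, with a log2 fold change of 0.32 (SE 0.08, edgeR with the block, adjusted p = 0.0154). The call was lost without pair 1 (0.26, edgeR with the block, adjusted p = 0.232), and in the fits without the block the value was 0.13 once GSK-126 replicate 1 was left out and 0.49 once DMSO replicate 1 or GSK-126 replicate 2 was. Srebf2, the factor of the sterol genes, rose by 0.53 and Insig1, a target of both that holds SREBP in the endoplasmic reticulum, by 0.88 (edgeR with the block, adjusted p = 3.83e-05 and 2.85e-07). Scap and the proteases Mbtps1 and Mbtps2 were at -0.04, -0.12 and -0.17, and the LXR genes Nr1h2 and Nr1h3 at 0.01 and 0.27, none of them called.

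Cholesterol synthesis shares acetyl-CoA and the SREBPs with the members. With the block, 18 of its 20 tested enzymes were called higher and 0 lower, beside 3.35% and 5.09% of all genes. Their median log2 fold change was 0.76 against 0.40 for the members. The 3 with the smallest p were Hmgcs1 (0.97), Fdft1 (1.09) and Msmo1 (0.93), with edgeR block adjusted p of 9.35e-08, 1.53e-07 and 1.53e-07. The value of Scd1, 0.79, was thus near the middle of that list, and the other 9 members lay below its median.

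Genes that use fatty acids were read in 3 lists, against the same background of 3.35% of all genes higher and 5.09% lower. Among 11 tested genes of activation and uptake, Acsl3, an acyl-CoA synthetase of the endoplasmic reticulum and lipid droplets, was called higher and no gene lower (0.64, SE 0.09, edgeR with the block, adjusted p = 8.79e-05, list median 0.09). Acot7 and Acsl6, a thioesterase and a synthetase of neurons, were at -0.28 and -0.33 and not called. Among 24 tested genes of glycerolipid and phospholipid assembly, the lysophospholipid acyltransferases Lpcat1 (0.35) and Lpcat3 (0.30) were called higher and the choline kinase Chka (-0.29) lower (edgeR with the block, adjusted p = 0.0177, 0.0445 and 0.0217, list median 0.05). None of these 3 calls held in every block fit with a pair left out. Lpcat3 was lost in each (edgeR, adjusted p = 0.165, 0.118 and 0.121 without pair 1, 2 or 3), as was Chka (0.129, 0.0849 and 0.0618), and Lpcat1 was lost without pair 1 (0.268) or pair 2 (0.0523). Fatty acid oxidation had 0 calls in either direction among 20 tested genes (median 0.10), and the 2 with the smallest p were Decr1 (0.46) and Cpt1c (-0.25). The fit without the block called 0 genes of every list named here.

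**Figure D5:**
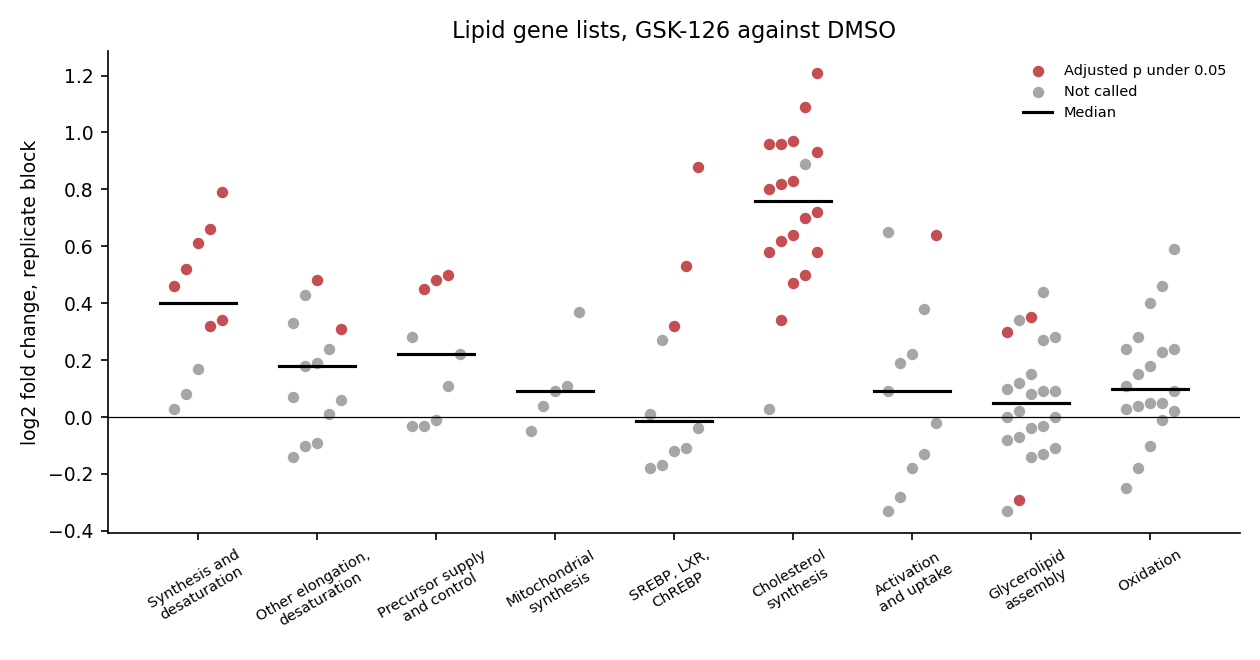
Log2 fold change of GSK-126 against DMSO in the fit with the replicate block, for each tested gene of 9 lists of lipid genes, red where the Benjamini-Hochberg adjusted p was under 0.05 and grey otherwise, with the list's median as a black bar. The medians are 0.40 for the members and 0.76 for cholesterol synthesis and lie between -0.01 and 0.22 for the other 7 lists.

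The genes whose pattern over the 6 libraries was most like the mean of the members were looked for among 11419 other tested genes at 10 CPM or more. Among the nearest were Msmo1 (Pearson r = 0.995), Cct3 (0.994), Tmem206 (0.987) and Elp6 (0.985), given as a description since all points share the same 6 libraries and the treatment difference. Msmo1 is an enzyme of cholesterol synthesis and rose by 0.93 on the log2 scale with the block. Cct3, a subunit of the cytosolic chaperonin, followed the members in order but hardly in size, from 150 ± 1.52 to 158 ± 1.80 CPM (SD, n = 3, log2 fold change 0.07).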

How the data were processed

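Per the labels and the study's methods, poly-A RNA of 3 DMSO and 3 GSK-126 cultures was sequenced as paired reads, trimmed with Trimmomatic 0.38, aligned with STAR 2.7.2b to GRCm38 and counted on exons with HTSeq, and the deposited values are unnormalized counts per gene. The annotation release and strand setting are not given in the sources used here. The 55341 symbols are those of GENCODE M21, whose exons gave locations and lengths. Lines for unassigned reads (58.7% to 60.7%) were left out. Counts per gene were fitted with edgeR 4.0.16 (TMM, filterByExpr, quasi-likelihood test, Benjamini-Hochberg adjustment over 16729 genes), without and with the replicate number as a block, and with DESeq2 1.42.0. CPM and RPKM use TMM factors. Log2 ratios of pairs have a pseudocount of 0.5. Deviations from group means correlated at 0.56, 0.63 and 0.49 between same-numbered libraries and at -0.49 to 0.0064 between others, so the numbers were taken to pair the libraries. Deviations from the mean of 3 libraries sum to 0, so the values between others follow in part from the same-numbered ones. P-values of the fits without the block measure the spread between these cultures of pooled litters. Those of the fits with the block leave out differences between replicate numbers. They measure the spread of the treatment difference over the 3 numbered pairs. The fits were run on counts simulated from their own fitted spread, which checks the estimates and not whether the model holds for these data. The members and lists were chosen with earlier results of these data known. Named genes are the members, up to 3 genes of a list with the smallest p in the block fit, genes of supply, elongation, mitochondrial synthesis and SREBP or LXR control where their role is described, 5 genes most like the members, and Ezh2. Hsd17b8 was not found by that symbol. Some genes that the rule names are not reported here.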

Additional observations from a re-analysis of the deposited data

How the results depend on the processing

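The replicate block moved the calls most. Genes called higher and lower with edgeR were 0 and 0 without the block and 561 and 851 with it. They were 20 and 1 with DESeq2, 369 and 618 with DESeq2 and the block, 9 and 1 with no filter on low counts, and 417 and 671, 337 and 496, and 558 and 719 in block fits without pair 1, 2 or 3. The members called higher were 0 without the block, 7 with it, 2 with DESeq2, 7 with DESeq2 and the block, and 6 in each block fit with a pair left out. With the block, the genes called higher were 2 for elongation and desaturation, 3 for supply and control, 3 for SREBP and LXR control, 18 for cholesterol synthesis, 1 for activation and uptake and 2 for glycerolipid assembly, where 1 was lower. The median of the members was 0.38 to 0.45 with a library left out. Signs turned in 5 results when libraries were dropped. The ratio of Elovl6 to Elovl5 ran from -0.18 to 0.27 and was also -0.03 with DMSO replicate 1 left out. Acss2 ran from -0.10 to 0.13 and was -0.023 with DMSO replicate 3 left out and -0.025 with the block and no pair 2. Elovl5 ran from -0.065 to 0.25 and was -0.002 with the block and no pair 3. Ezh2 ran from -0.29 to 0.048, the last with DMSO replicate 1 left out, and was 0.032 in the fit that drops GSK-126 replicate 3. Cbr4 ran from -0.034 to 0.26, and was -0.024 with GSK-126 replicate 1 left out and -0.044 with the block and no pair 2. The causes were not tested. Leaving out 1 library breaks a pair. The 3 cultures per treatment limit what can be shown of small changes. An interval that spans 0, such as that of Acss2, does not show that a gene did not change.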
